A study of Mus musculus with 4 samples.

Results

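The stathmins, nestin, vimentin and class III beta-tubulin were followed across 4 mouse embryonic stem cell lines, of which 2 carry a conditional knockout of UTX and 2 are knockouts. The set holds 7 genes, the stathmin genes Stmn1, Stmn2, Stmn3 and Stmn4, the intermediate filament genes Nes and Vim, and the tubulin gene Tubb3. Its members are the 14 probe sets that the annotation of the Mouse Genome 430 2.0 array assigns to 1 of these genes and to no other, out of 45101 probe sets on the array. The genes were listed with the KO against cKO values of these same arrays in view, so those values are a description of the set and not a test of it.

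Stathmins are small phosphoproteins that bind tubulin dimers and promote the shrinkage of microtubules. Stmn1 is the cytosolic stathmin of dividing cells, while Stmn2, Stmn3 and Stmn4 encode membrane-anchored relatives best known from neurons and their growth cones. Nestin is an intermediate filament protein of neural stem and progenitor cells, vimentin is the main intermediate filament of mesenchymal cells and fibroblasts and is also made by neural progenitors, and Tubb3 encodes a beta-tubulin used as a marker of neurons.

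The series asks which genes depend on UTX, the histone H3 lysine 27 demethylase encoded by the X-linked gene Kdm6a. It compares 2 lines carrying a UTX conditional knockout (cKO1 and cKO2) with 2 UTX knockout lines (KO1 and KO2), 1 array of total RNA each. Signals listed for 4 arrays below are always in the order cKO1, cKO2, KO1, KO2. All 4 lines were grown with LIF and serum on irradiated embryonic fibroblast feeders and then passaged on gelatin to remove the feeders, and all were collected untreated after a night on gelatin. The labels give neither the parent line nor how the KO lines were derived, and they do not say whether repeat cultures were taken, so the spread within a group may be partly technical. With 2 lines against 2 an exact permutation test of 1 value cannot give a two-sided p below 0.333.

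The arrays were alike in scale, with median signals from 64.4 to 81.6 that were higher in both lines numbered 1. Kdm6a, the targeted gene, read 658, 415, 265 and 198 on its brightest probe set, so that the KO mean was 43.2% of the cKO mean. Its log2 fold change was -1.17 (adjusted p = 0.0884 in limma). With 1 array left out it was -0.84 without cKO1, -1.50 without cKO2, -1.38 without KO1 and -0.97 without KO2. Kdm6a passed with centring on the median (-1.19), but not with all its probe sets averaged (-0.57). A second probe set, 1427672_a_at, gave -1.14. Of its dim probe sets, 1445198_at overlapped between the groups and 1440524_at was higher in KO. Which exons were deleted was not used here, so these signals check the genotype only in part. Pluripotency was marked in all lines, since all 13 pluripotency markers measured lay above the filter level, a signal of 77.7 that leaves out the lower 40% of genes by mean log2 signal. Detection calls were not used, so this level is a cut on the ranking of genes and does not measure background.

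Among the 7 genes, Stmn4 was far lower in the KO lines, and Nes was far lower on its brightest probe set only. Vim was lower by an amount that depended on 1 cKO line. Stmn1, Stmn2, Stmn3 and Tubb3 differed less, with KO means between 66.6% and 116% of the cKO mean on every probe set. All 7 genes passed the filter on their brightest probe set, and 2 of them, Stmn4 and Nes, lay past an adjusted p of 0.05 in limma fitted over 10916 genes, where 2.2% of all genes did so and 1.57% were lower in KO. Over the 14 probe sets the KO values lay wholly below the cKO values for 8 and wholly above them for 1, and 5 overlapped. Of all probe sets tested, 19.3% lay wholly below and 20.8% wholly above. The median log2 fold change was -0.26 over the 7 genes and 0.01 over all genes tested. These counts describe a set chosen on this contrast, and nothing is read from them.

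**Figure D1:**
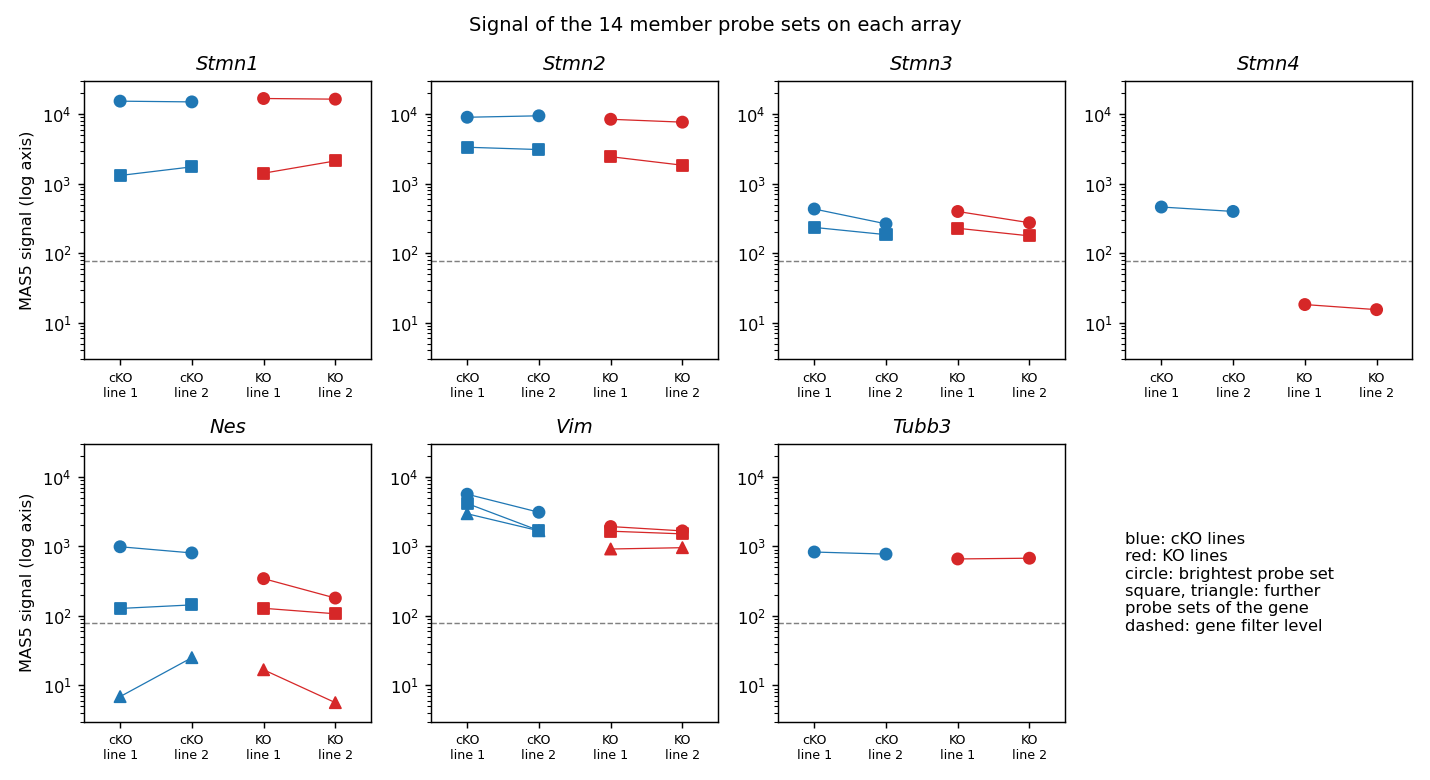
MAS5 signal (log axis) of each of the 14 member probe sets on each of the 4 arrays, 1 panel per gene, with blue for cKO lines, red for KO lines, a symbol per probe set and a dashed line at the gene filter level of 77.7. Stmn4 drops below the dashed line in both KO lines, the brightest Nes probe set and all 3 Vim probe sets sit lower in KO, and the other genes stay near their cKO level.

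Stmn4, the stathmin known as RB3, was measured by 1 probe set (1418105_at). Its signal was 462 in cKO1 and 399 in cKO2, and then 18.2 for KO1 and 15.4 for KO2. Both KO signals were close to the 25th percentile of all values on the arrays, and the groups were far apart, with the lower cKO value 21.9-fold above the higher KO value. The group means were 430 ± 44.4 and 16.8 ± 2.00 (SD, n = 2 each), and the log2 fold change, here and below on the scale of log2(signal + 4.79), was -4.33 (SE 0.31). With a pseudocount of 1 it was -4.60, and with the 25th percentile of all values as pseudocount it was -3.68. The lines of each number gave nearly the same change, -4.34 between the lines numbered 1 and -4.32 between those numbered 2.

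The size of the Stmn4 difference thus moves with the pseudocount, since its KO signals were low. The cKO mean was 5.54-fold above the filter level and both KO signals lay under it, so Stmn4 passed the filter through its cKO signal. In RNA from whole cultures, fewer cells that make a transcript and less of it per cell cannot be told apart.

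The genes whose pattern over the 4 arrays was most like that of Stmn4 were Chst15, a sulfotransferase of chondroitin and dermatan sulfate, Gbp2, a GTPase induced by interferon, and Nt5e, the ectonucleotidase CD73. Likeness was the root mean square difference between centred log2 signals over the 4 arrays, which was 0.15 for Chst15, 0.67 for Gbp2 and 0.68 for Nt5e. Chst15 read 572, 374, 19.2 and 17.9, so its KO values too were close to the 25th percentile. Gbp2 read 613, 353, 46.6 and 54.9, and Nt5e read 326, 277, 41.8 and 8.17. For each of these genes both KO values lay under the filter level, so each was tested through its cKO signal. Without the filter the call of Nt5e ended (adjusted p = 0.06 in limma).

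The other 3 stathmins kept most of their signal. Stmn1 was measured by 2 probe sets. The brighter one (1415849_s_at) read 15401, 15028, 16817 and 16458, so that both KO lines were slightly higher, with a log2 fold change of 0.13 (SE 0.08). The suffix _s_at marks a probe set whose probes can match more than 1 transcript. The second (1448113_at) read 1313, 1747, 1416 and 2127, higher in the lines numbered 2 of both groups, and its groups overlapped.

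Stmn2, also called SCG10 and known for its part in axon growth, was bright on both of its probe sets and a little lower in KO. On 1423281_at it read 9035, 9479, 8449 and 7680, a log2 fold change of -0.20 (SE 0.10). On 1423280_at it read 3346, 3099, 2446 and 1844, a log2 fold change of -0.60 (SE 0.17). The KO values lay below the cKO values on both probe sets, and the KO mean was 87.1% of the cKO mean on the first and 66.6% on the second. Neither probe set passed in the fit over all probe sets, in which 1.22% of 20967 passed, so the probe sets of Stmn2 share a direction but differ in size.

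Stmn3, the stathmin-like protein SCLIP, differed more between line numbers than between genotypes. Its brighter probe set (1435113_x_at) read 432, 264, 398 and 274. The second (1460181_at) read 235, 185, 228 and 178. Both probe sets were higher in the lines numbered 1, by 1.63-fold in cKO and 1.45-fold in KO on the brighter one, while the group means differed by 1.04-fold and 1.03-fold. The log2 fold changes were -0.03 (SE 0.29) and -0.05 (SE 0.25), and the sign of the first turned without cKO1 (0.32) and without KO2 (0.23).

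Tubb3 was measured by 1 probe set (1415978_at), which read 830, 774, 660 and 676. Both KO lines were lower, by a log2 fold change of -0.26 (SE 0.17) that did not pass in the fit. The KO mean was 83.3% of the cKO mean.

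**Figure D2:**
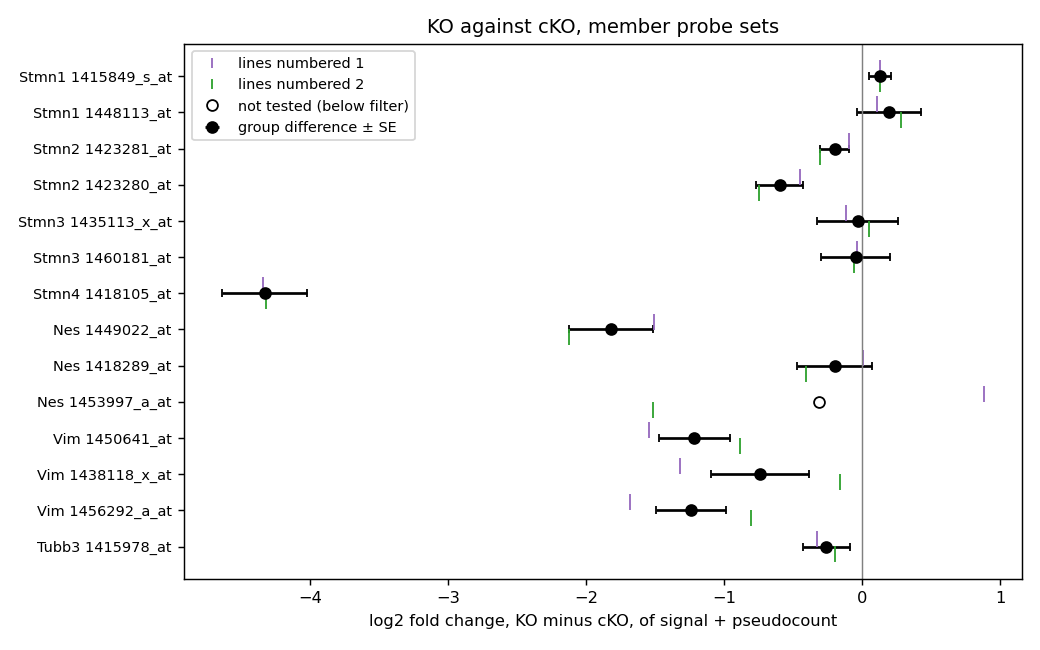
Log2 fold change of KO against cKO (of signal + 4.79) for each member probe set, with filled points and bars for the group difference ± SE from limma, an open point for the probe set below the filter, and ticks for the change between lines of the same number. Stmn4 stands at -4.33 with both ticks on the point, the 3 Vim probe sets have their ticks apart, and the 3 Nes probe sets run from -1.82 to -0.20.

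Promoter sequence from RefSeq (GRCm38.p6) was matched for 4 of the 7 genes, Nes, Vim, Stmn3 and Tubb3. The 250 bases before the transcription start are shown for Nes and Vim, the filament genes described next, whose brightest probe sets were lower in KO, and for Stmn3, whose group means were nearly level. Capitals mark matches on either strand to 3 motifs. The GC box was searched as GGGCGG. For the CCAAT box the letters were those of its name. The TATA box was searched as TATAAA. In all, 0 letters were shared between matches.
Nes, chr3:87970843-87971092, plus strand: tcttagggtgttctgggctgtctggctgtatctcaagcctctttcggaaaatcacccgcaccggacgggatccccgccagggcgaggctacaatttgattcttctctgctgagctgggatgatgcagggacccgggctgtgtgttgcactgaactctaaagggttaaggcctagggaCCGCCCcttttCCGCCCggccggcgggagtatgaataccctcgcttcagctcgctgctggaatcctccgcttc
Vim, chr2:13574061-13574310, plus strand: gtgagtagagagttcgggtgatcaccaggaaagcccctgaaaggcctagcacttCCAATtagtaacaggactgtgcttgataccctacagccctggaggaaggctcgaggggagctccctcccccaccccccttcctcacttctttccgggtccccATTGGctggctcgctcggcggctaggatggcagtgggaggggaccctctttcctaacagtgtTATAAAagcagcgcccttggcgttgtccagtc
Stmn3, chr2:181314501-181314750, minus strand: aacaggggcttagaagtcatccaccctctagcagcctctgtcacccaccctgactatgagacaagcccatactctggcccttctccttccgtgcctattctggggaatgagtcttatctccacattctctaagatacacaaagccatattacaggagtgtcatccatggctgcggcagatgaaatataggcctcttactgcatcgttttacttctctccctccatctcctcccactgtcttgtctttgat

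The windows differ in their CpG content and in these motifs. The Nes window held 15 CpG dinucleotides and 2 GC boxes, the Vim window 8 CpG, 2 CCAAT boxes and 1 TATA box, and the Stmn3 window 3 CpG and 0 of the 3 motifs. The Tubb3 window held 21 CpG, 2 GC boxes and 1 CCAAT box. The median over 32851 promoter windows of the same length was 6 CpG. A GC box was present in 32.7% of these windows, a CCAAT box in 33.8% and a TATA box in 12.4%. These matches describe letters only, and the array does not measure the promoter.

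Nes was measured by 3 probe sets that did not behave alike. The brightest (1449022_at) read 988, 805, 344 and 181. Both KO lines were below both cKO lines, and KO2 was the lowest, at 1.90-fold under KO1. The mean was 897 ± 130 for cKO against 262 ± 115 for KO (SD, n = 2 each). The KO mean was thus 29.2% of the cKO mean, and the log2 fold change was -1.82 (SE 0.30).

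The second Nes probe set (1418289_at) stayed near 1 level on every array. It read 128, 144, 129 and 107, its groups overlapped, and its log2 fold change was -0.20 (SE 0.27). The third (1453997_a_at) stayed between 5.64 and 25.1, below the filter, and was not tested. The lower level in KO was therefore seen on 1 of the 3 probe sets, and with the mean of all 3 the log2 fold change was -0.78 and Nes no longer passed. Without the filter on dim genes, or without the trend of variance on signal, Nes also missed the threshold, while it passed with any 1 of the 4 arrays left out.

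The genes most like the brightest Nes probe set over the 4 arrays were Pla1a, a phosphatidylserine phospholipase, Samd4, an RNA-binding protein, and Sema3c, a secreted semaphorin, with root mean square differences of 0.16, 0.17 and 0.17. Samd4 read 682, 434, 173 and 98.2, with KO2 lowest, as for Nes. It passed in limma (-2.02, adjusted p = 0.0308), while Pla1a (adjusted p = 0.141) and Sema3c (adjusted p = 0.066) did not. The call of Samd4 ended without the filter, without the variance trend and with its probe sets averaged.

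Vim was measured by 3 bright probe sets, and on each of them cKO1 stood well above the other 3 lines. The brightest (1450641_at) read 5632, 3097, 1929 and 1671. The probe set 1456292_a_at read 2949, 1676, 917 and 958. The probe set 1438118_x_at, whose suffix marks probes that may also match other sequences, read 4145, 1690, 1655 and 1514. The KO values lay below the cKO values on all 3, but on the last cKO2 was only 1.02-fold above KO1.

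The log2 fold changes of Vim were -1.22 (SE 0.26), -1.24 (SE 0.25) and -0.74 (SE 0.36) on 1450641_at, 1456292_a_at and 1438118_x_at, and none of the 3 passed in the fit of all 4 arrays on genotype alone. Between the cKO lines alone Vim differed by 1.82-fold, 1.76-fold and 2.45-fold in the same order, and between the KO lines by 1.15-fold on 1450641_at. In the fit over genes the brightest probe set gave -0.78 without cKO1, and did not pass. It passed when any of cKO2 (-1.65), KO1 (-1.32) or KO2 (-1.11) was left out, and with each array centred on its median (-1.23).

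Fibroblasts, on which these lines had been grown, make vimentin, so their markers are given beside it. Of 24 feeder fibroblast markers 23 were measured and 16 lay above the filter, of which 3 fell in KO and 13 did not pass. All 16 log2 fold changes were below 0, and their median was -0.79. At an unadjusted p under 0.05 in limma 12 were lower and 0 were higher. The KO values lay wholly below the cKO values for 12 of the 16, beside 19.3% of all probe sets tested. This list was chosen with earlier results known. Of all genes tested 2.2% passed in limma, and 48.6% had a log2 fold change below 0. The markers that fell were Tagln (transgelin, log2 fold change -1.76, adjusted p = 0.0056), Col5a1 (a fibrillar collagen chain, -1.43, adjusted p = 0.0295) and Thy1 (a surface glycoprotein, -1.20, adjusted p = 0.0483). The call of Col5a1 ended without cKO1, and that of Thy1 without cKO2 and without KO2. The summed signal of the 23 markers was 28469, 20838, 11295 and 12664. Without Tagln the other 22 summed to 19530.6, 13746.4, 9064.8 and 10194.5. These sums weigh the brightest genes most, so they do not show a drop shared by all markers.

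The collagens among these markers also stood highest in cKO1. The summed signal of the 7 collagen genes, a subset taken after its values were seen, was 3335, 1976, 1308 and 1458, so that cKO1 was 1.69-fold above cKO2. Of the 16 markers tested, 14 had a higher signal for cKO1 than for cKO2. The median log2 difference, cKO1 minus cKO2, was 0.46 over these 16 and 0.004 over all genes tested. Of the 23 markers measured, 5, 7, 9 and 9 lay under the filter level on the 4 arrays in turn, and 0 had a signal of 0. The part of fibroblast transcripts in the Vim difference was not tested.

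**Figure D3:**
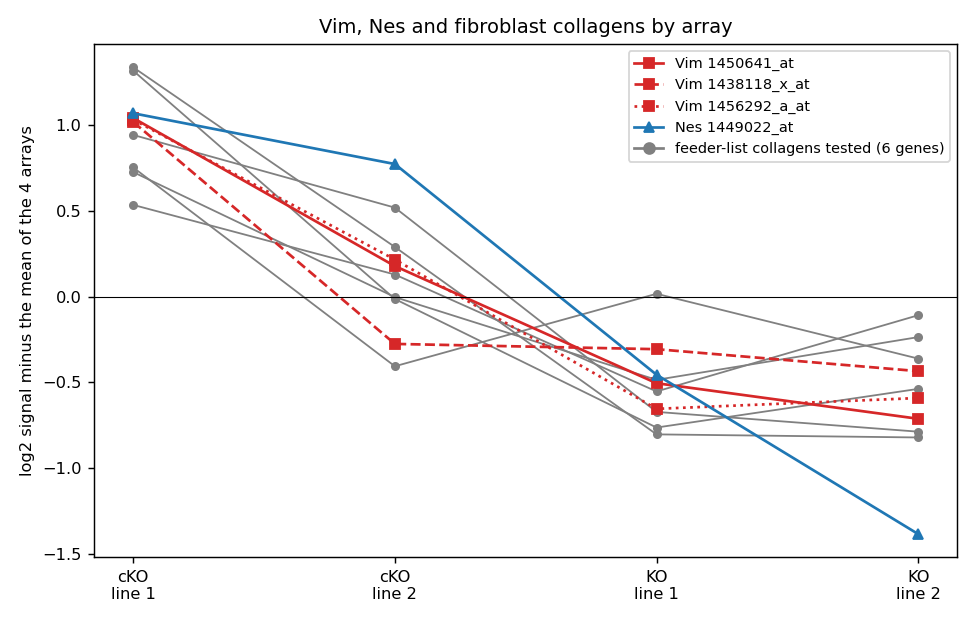
Log2 signal minus its mean over the 4 arrays for the 3 Vim probe sets (red), the brightest Nes probe set (blue) and the 6 collagens of the feeder list that were tested (grey), with lines joining the separate samples only to guide the eye. The Vim probe sets and most collagens are highest in cKO1 and drop by cKO2, whereas Nes is high in both cKO lines and lowest in KO2.

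The relatives of these genes are given from lists of related genes. Intermediate filament and lamin genes other than Nes and Vim held the most calls of the 9 lists. Of 16 such genes 14 were tested, 5 fell, 0 rose and 9 did not pass, with a median log2 fold change of -0.62 against 0.01 for all genes tested. Of all genes tested 2.2% passed and 1.57% passed as lower in KO, but this list was chosen with earlier results known. The keratins of simple epithelia Krt19 (-2.10, adjusted p = 0.0044), Krt8 (-1.81, adjusted p = 0.0113) and Krt18 (-1.57, adjusted p = 0.0192) fell in limma. So did Prph (-1.81, adjusted p = 0.02), which encodes peripherin of peripheral neurons, and Nefl, the neurofilament light chain, which is named after its values were seen. The changes of the list ran from -2.10 to 0.35, with 11 below 0 and 3 above. At an unadjusted p under 0.05 in limma 7 were lower and 1 was higher. The neuronal filament gene Ina was higher in both KO lines (0.27, adjusted p = 0.418 in limma). The keratin Krt7 overlapped between the groups (-0.62, adjusted p = 0.543 in limma).

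Prph read 422, 323, 92.2 and 113, and Krt8 read 8103, 5791, 2219 and 1708. For both the groups were well apart, and the calls of these keratins and of Prph held with any 1 array left out. Nefl read 2140, 1957, 1021 and 1213, a log2 fold change of -0.88 (adjusted p = 0.0425) whose call ended without cKO1, cKO2 or KO1 and with centring.

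Among the tubulins 13 of 15 were measured and 11 tested, and 1 fell, 0 rose and 10 did not pass, with a median of -0.01. Their log2 fold changes ran from -1.32 to 0.87, with 7 below 0 and 4 above. The tubulin that fell was Tubb6, a beta-tubulin, which read 5977, 4456, 1810 and 2340 (log2 fold change -1.32, adjusted p = 0.0229 in limma). With the mean of its probe sets Tubb6 gave -0.69 and did not pass.

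Of 29 microtubule-associated and growth cone genes 26 were tested, 1 fell, 0 rose and 25 did not pass, with a median log2 fold change of -0.13. The changes ran from -1.51 to 1.18, with 16 below 0 and 10 above. At an unadjusted p under 0.05 in limma 6 were lower and 2 were higher. Gap43, a growth cone protein, read 824, 762, 264 and 288 (-1.51, adjusted p = 0.0116). Both KO values of Gap43 lay below both cKO values and stayed above the filter level. The lower cKO value was 2.65-fold above the higher KO value, a smaller gap than the 21.9-fold of Stmn4.

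Of 36 neural progenitor, neuron and glia genes tested 2 passed, both lower in KO. That is 5.56% of them, beside 2.2% of all genes tested. Of 27 neural progenitor genes 15 were tested and 1 fell, the transcription factor Sox3 (log2 fold change -1.34, adjusted p = 0.0347), whose call ended without cKO1. The median of the progenitor list was -0.14, and its changes ran from -1.34 to 0.63, with 9 below 0 and 6 above. At an unadjusted p under 0.05 in limma 5 progenitor genes were lower and 1 was higher. Of 20 neuron markers 14 were tested and 1 fell, the axonal kinesin Kif1a, which read 188, 223, 27.8 and 61.4 (-2.17, adjusted p = 0.0483). Both its KO values lay under the filter level, so Kif1a was tested through its cKO signal, and without the filter its call ended (adjusted p = 0.106 in limma). The call also ended without cKO1, without cKO2, with quantile normalization, with a pseudocount of 1 and without the variance trend. The list's median was -0.18, and its log2 fold changes ran from -2.17 to 0.71, with 9 below 0 and 5 above. At an unadjusted p under 0.05 in limma 4 neuron markers were lower and 1 was higher.

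Of 13 glia markers 7 were tested and 0 passed in limma (1 lower and 1 higher at an unadjusted p under 0.05), with log2 fold changes from -0.58 for Olig2 (adjusted p = 0.324) to 0.51 for Aldoc (adjusted p = 0.243). The summed signal of the 18 neuron markers measured was 12576, 15996, 11473 and 13104, and that of the 12 glia markers 2975, 3578, 3262 and 3200. Both sums rest mostly on a few bright genes and give no level for the markers as a class. The neuron markers lay at 4 to 6 of 18 below the filter level on each array, and the progenitor genes at 9 to 12 of 25.

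Genes of the mesenchymal transition often accompany vimentin. Their list also holds epithelial genes, so its median log2 fold change, -0.52 over the 13 tested, describes neither state. The changes ran from -1.54 to 0.32, with 10 below 0 and 3 above. The member that fell was Cldn6, an epithelial tight junction gene on this list (-1.54, adjusted p = 0.0197), and the other 12 did not pass. Cdh1, Epcam and Ocln stand with it for the epithelial state. The groups overlapped for Cdh1 (0.08) and Epcam (-0.07), and Ocln gave -0.52. Over all 9 lists 14 of 129 genes tested passed, all lower in KO. Of all genes tested 2.2% passed and 1.57% passed as lower in KO. The lists were chosen with earlier results of these data known, so nothing is read from this count. In the lists 11 genes were higher at an unadjusted p under 0.05 and 0 of these after adjustment in limma. More were lower at the unadjusted level. Among them were 12 feeder markers, with 0 higher, and 7 of the other filament and lamin genes, with 1 higher. Without the filter the calls of Col5a1, Kif1a, Lin28a, Nefl, Sox3 and Thy1 ended. Where all probe sets of a gene were averaged, those of Col5a1, Lin28a, Nefl, Sox3, Thy1 and Tubb6 ended, and Kif1a and Prph were not tested. Without the variance trend 12 of the 14 calls ended, and those of Krt19 and Gap43 were kept.

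Of the 13 pluripotency markers tested 1 fell, 0 rose and 12 did not pass. Their log2 fold changes ran from -0.66 to 0.94 with a median of 0.08, and 8 were above 0. At an unadjusted p under 0.05 in limma 4 were higher in KO and 1 was lower. The marker that fell was the RNA-binding protein gene Lin28a (-0.66, adjusted p = 0.0346 in limma). Its call ended without cKO1, without cKO2, without the filter, without the variance trend, when its probe sets were averaged (-0.46, adjusted p = 0.231) and after centring each array (adjusted p = 0.262).

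**Figure D4:**
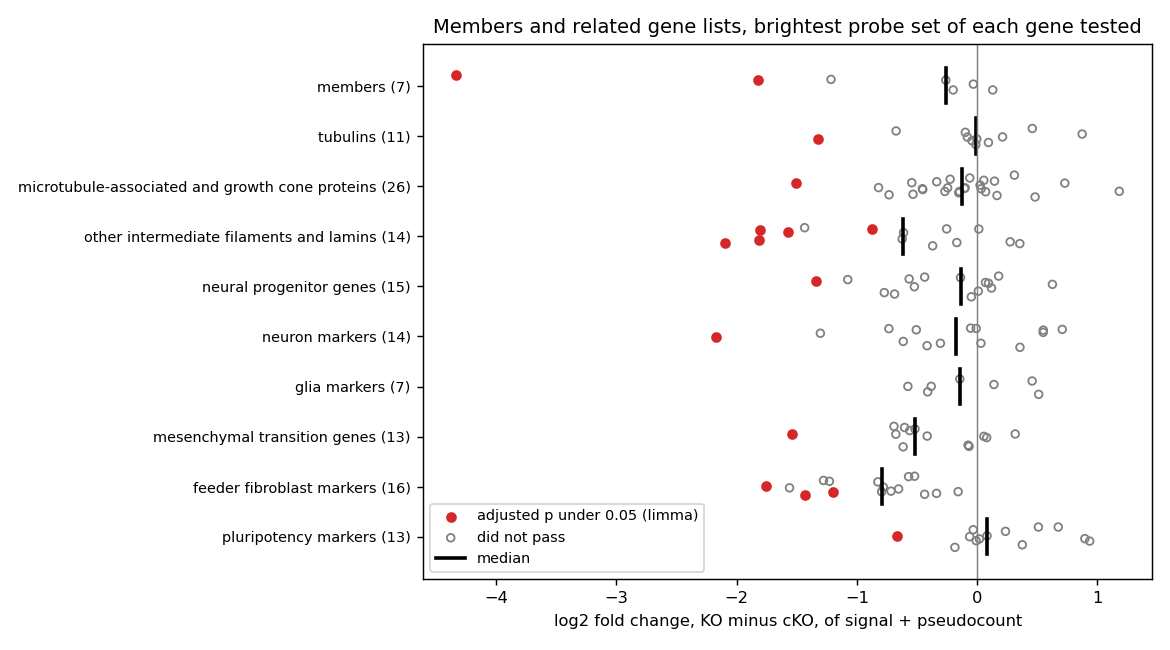
Log2 fold change of KO against cKO (of signal + 4.79) for the brightest probe set of each gene tested, by list, with the number of genes tested in brackets, red points for genes past an adjusted p of 0.05 in limma, open points for the rest and a black bar at the median. The 5 red points of the other intermediate filaments lie between -2.10 and -0.88, while the medians of the tubulins and of the neural progenitor, neuron and glia genes lie between -0.18 and -0.01.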

How the data were processed

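Intensity values, 1 MAS5 signal per probe set and array on a linear scale, were deposited by the authors; MAS5 is named per the submitters' processing notes, with no version or settings given in the sources used. Each array had the same trimmed mean of 500 (2% cut at both ends). Detection calls, build and scan batches were not used here, and the number of arrays limits precision.

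Of 45101 probe sets, 34945 besides the 64 controls named 1 gene in the platform annotation, and 34741 of these took a current symbol through a RefSeq gene table (GRCm38.p6). The probe set with the highest mean log2 signal stood for each of 18193 genes, and the lower 40% were left out, leaving 10916. Every probe set was also fitted on its own (20967 tested). Signals were used as log2(signal + 4.79), 4.79 being the 10th percentile of all values, so that changes of dim genes come out too small. The test of KO against cKO used limma 3.58.1 under R 4.3.3 (lmFit, eBayes with a variance trend; 2 residual and 5.13 prior degrees of freedom) and Benjamini-Hochberg adjustment, called at 0.05. SEs of members come from the fit over all probe sets.

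The members, the 9 lists and the alternatives were chosen with earlier results of these data known. Named genes are the members, Kdm6a, and up to 4 called genes of largest change per list (or the 2 of smallest p). The 3 genes nearest to each called member are named too. Nefl was named after its values were seen. Values of Ina, Krt7, Cdh1, Epcam and Ocln are given after they were seen, and these genes are not among the 30 named genes. Alternatives covered pseudocount, filter, normalization, probe set summary, variance trend, line number and each array left out. Python 3.11.15, numpy 2.4.6, pandas 2.3.3 and matplotlib 3.10.9 made summaries and plots.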

Additional observations from a re-analysis of the deposited data

How the results depend on the processing

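The fit called 240 genes, against 147 without a filter, 154 with a filter on the lower 60%, 129 with all probe sets of a gene averaged, and 28 without the variance trend. In the same order the 2 members called became 1, 1, 1 and 1, namely Stmn4, Nes, Stmn4 and Stmn4, since Stmn4 lay below the stricter filter and was not tested there. The 14 genes called from the lists became 8, 9, 6 and 2. Over probe sets, 255 were called, and 125 without a filter. With 1 array left out the counts ran from 228 to 432 for genes, 251 to 392 for probe sets, 2 to 3 for members and 15 to 18 for list genes, the highest for genes being without KO1 and for probe sets without cKO1. There the lone line of a group was assumed to vary like the other group. The log2 fold change of Stmn3 changed sign, from -0.38 to 0.32 with 1 array left out. Over the 30 named genes and 13 alternatives, 307 values kept their sign and side of the threshold, 47 lost a call, 16 gained one, 2 changed sign and 18 were not tested, the gene lying under the filter there. Beyond these, pseudocounts, quantile normalization and centring kept each count within 1.5 times. The labels do not pair the lines. Lines of the same number deviated together across genes (correlation 0.52), and the line number as a replicate block gave 1048 genes, 1682 probe sets, 43 list genes and 3 members (Vim added, log2 fold change -1.22). Under that block Kdm6a also passed, as did the Vim probe sets 1450641_at and 1456292_a_at and the Stmn2 probe set 1423280_at. Except as stated, the cause was not tested. Detection calls were not used, so signal over background is not known, and the size of a difference with a low signal on 1 side, such as that of Stmn4, moves with the pseudocount (-4.60 to -3.68).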
